A study of Mus musculus with 6 samples.

Results

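Mitochondrial oxidative phosphorylation is carried out by 5 enzyme complexes of the inner membrane, and most of their subunits are encoded by nuclear genes scattered over the genome. Complexes I and II take electrons from NADH and succinate, complex III hands them to cytochrome c, complex IV passes them to oxygen, and complex V uses the proton gradient made on the way to form ATP. The subunits of a complex are needed in fixed proportions, so the promoters of these genes are a long-standing example of housekeeping promoters that have to be active together. Factors with recognised sites in many of them are NRF1, the ETS protein GABP, YY1 and the oestrogen-related receptors.

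The contacts of these promoters were examined in HiCap libraries of mouse embryonic stem cells of the R1 line, grown with LIF and serum on gelatin, with no treatment and no other genotype. HiCap joins Hi-C, in which DNA held together by formaldehyde is cut with MboI at the sequence GATC and religated, to sequence capture of the fragments that hold promoters. There were 2 HiCap replicates of this line, which the authors describe as biological. There was also 1 list of Hi-C contacts without capture into which the authors had pooled 2 replicates. Each list gives promoter fragments with a gene name and the distal fragment each was ligated to. The lists measure no RNA or protein, so the stem cell label could not be checked against marker genes.

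The genes were chosen by symbol (Nduf with a, b, c, s or v and a digit, Sdh, Uqcr, Cox4 to Cox8 and Atp5) from all genes that either HiCap list names, which gave 75 of 21202 genes. By symbol, 32 were counted under complex I, 3 under complex II, 6 under complex III, 17 under complex IV and 17 under complex V. Ndufa4, later assigned to complex IV, and its paralogue Ndufa4l2 stayed under complex I in all counts. The symbols also match Cox7a2l, Atp5s and Atp5sl, which are not held to be subunits of the enzymes but are included in these counts. A pair was called when both replicates listed the same promoter fragment of the gene with the identical distal fragment, and a gene was called when it had at least 1 such pair. Per the authors' methods, each pair in a HiCap list rests on at least 3 read pairs from ends more than 1 kb apart. The lists hold no read numbers, so the strength of a contact is unknown and the intervals given are exact Clopper-Pearson 95% intervals, which cover counting error only.

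The captured promoters are MboI fragments of known sequence, and 3 of them are shown because their genes had the most called distal fragments in complexes V, IV and III. The windows come from RefSeq on GRCm38.p6 and run from 250 bases before to 50 bases after a start site. Capitals mark matches on either strand to GCGCANGCG, the core of the NRF1 site, CCGGAAG, an ETS site, AANATGGC, the YY1 site, and GATC, where MboI cuts. The window of Atp5b (chr10:128083057-128083356, plus strand) was found base for base in mm9 at chr10:127520113-127520412, within the captured fragment chr10:127518796-127520574. That of Cox6a1 (chr5:115348909-115349208, minus strand) lies at chr5:115798918-115799217 of mm9, within the captured fragment chr5:115798468-115799246. That of Uqcr (Uqcr11 in RefSeq, chr10:80406772-80407071, minus strand) lies at chr10:79869517-79869816 of mm9 and only partly in the captured fragment chr10:79868899-79869578, because GATC occurs 3 times in it.
Atp5b: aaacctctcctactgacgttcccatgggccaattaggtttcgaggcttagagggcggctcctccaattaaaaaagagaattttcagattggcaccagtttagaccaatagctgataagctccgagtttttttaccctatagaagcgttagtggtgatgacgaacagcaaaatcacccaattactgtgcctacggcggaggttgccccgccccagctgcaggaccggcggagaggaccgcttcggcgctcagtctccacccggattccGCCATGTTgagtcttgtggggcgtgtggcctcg
Cox6a1: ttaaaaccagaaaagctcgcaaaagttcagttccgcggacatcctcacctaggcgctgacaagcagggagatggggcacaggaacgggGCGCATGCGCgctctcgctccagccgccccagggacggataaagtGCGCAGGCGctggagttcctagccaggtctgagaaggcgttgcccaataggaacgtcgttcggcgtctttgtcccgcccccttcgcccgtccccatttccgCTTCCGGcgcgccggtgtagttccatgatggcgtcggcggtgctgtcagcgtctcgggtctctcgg
Uqcr: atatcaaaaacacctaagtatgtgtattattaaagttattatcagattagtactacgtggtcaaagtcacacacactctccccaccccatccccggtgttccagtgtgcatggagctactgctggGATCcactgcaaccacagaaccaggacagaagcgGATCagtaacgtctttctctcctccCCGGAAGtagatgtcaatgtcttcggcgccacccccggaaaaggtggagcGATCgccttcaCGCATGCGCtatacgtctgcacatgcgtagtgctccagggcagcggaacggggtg
The Cox6a1 window held 3 overlapping or separate matches to the NRF1 core and 1 ETS match, and the Uqcr window held 1 of each. The Atp5b window held neither, and its 1 YY1 match lay within the 50 bases after the start site.

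RefSeq windows were found for 64 of the 75 genes, 4 of them through an older symbol. The NRF1 core was in a window of 19 of these 64 genes (29.7%), against 7.03% of all 27025 genes with a window. A YY1 match stood in 17 (26.6% against 6.96%), an ETS match in 16 (25% against 9.93%) and AAGGTCA, the site of oestrogen-related receptors, in 8 (12.5% against 5.38%). CCAAT, a box of many promoters, was in 28 (43.8% against 41.1%). By complex, the NRF1 core was found in 7 of 29 genes of complex I, 7 of 16 of complex V, 2 of 4 of complex III and 2 of 3 of complex II, and in complex IV it stood in the window of Cox6a1 alone, 1 of 12. YY1 matches were in 11 of the 29 genes of complex I. Of the genes with a call, 17 of 53 had the NRF1 core, and of those without, 2 of 11 did. A match is a description of letters and not a bound site.

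A called distal fragment was found for 61 of the 75 genes (81.3%, interval 70.7 to 89.4), whereas 60.7% of all listed genes had one. Many genes have several captured promoters, which gives them more chances of a call. Among the genes with 1 promoter fragment, 42 of 53 were called (79.2%), against 55.2% of all such genes. There were 16 genes with 10 or more called distal fragments (21.3%), compared with 13.7% of all listed genes. A call over 15 kb away, a minimum distance that the authors applied in one of their tests, was found for 42 genes (56.0%) against 41.3%. The median number of called distal fragments was 3 per gene and 1 over all listed genes. In the single lists the medians were 21 in replicate 1 and 17 in replicate 2, and 11 in both over all genes.

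**Figure D1:**
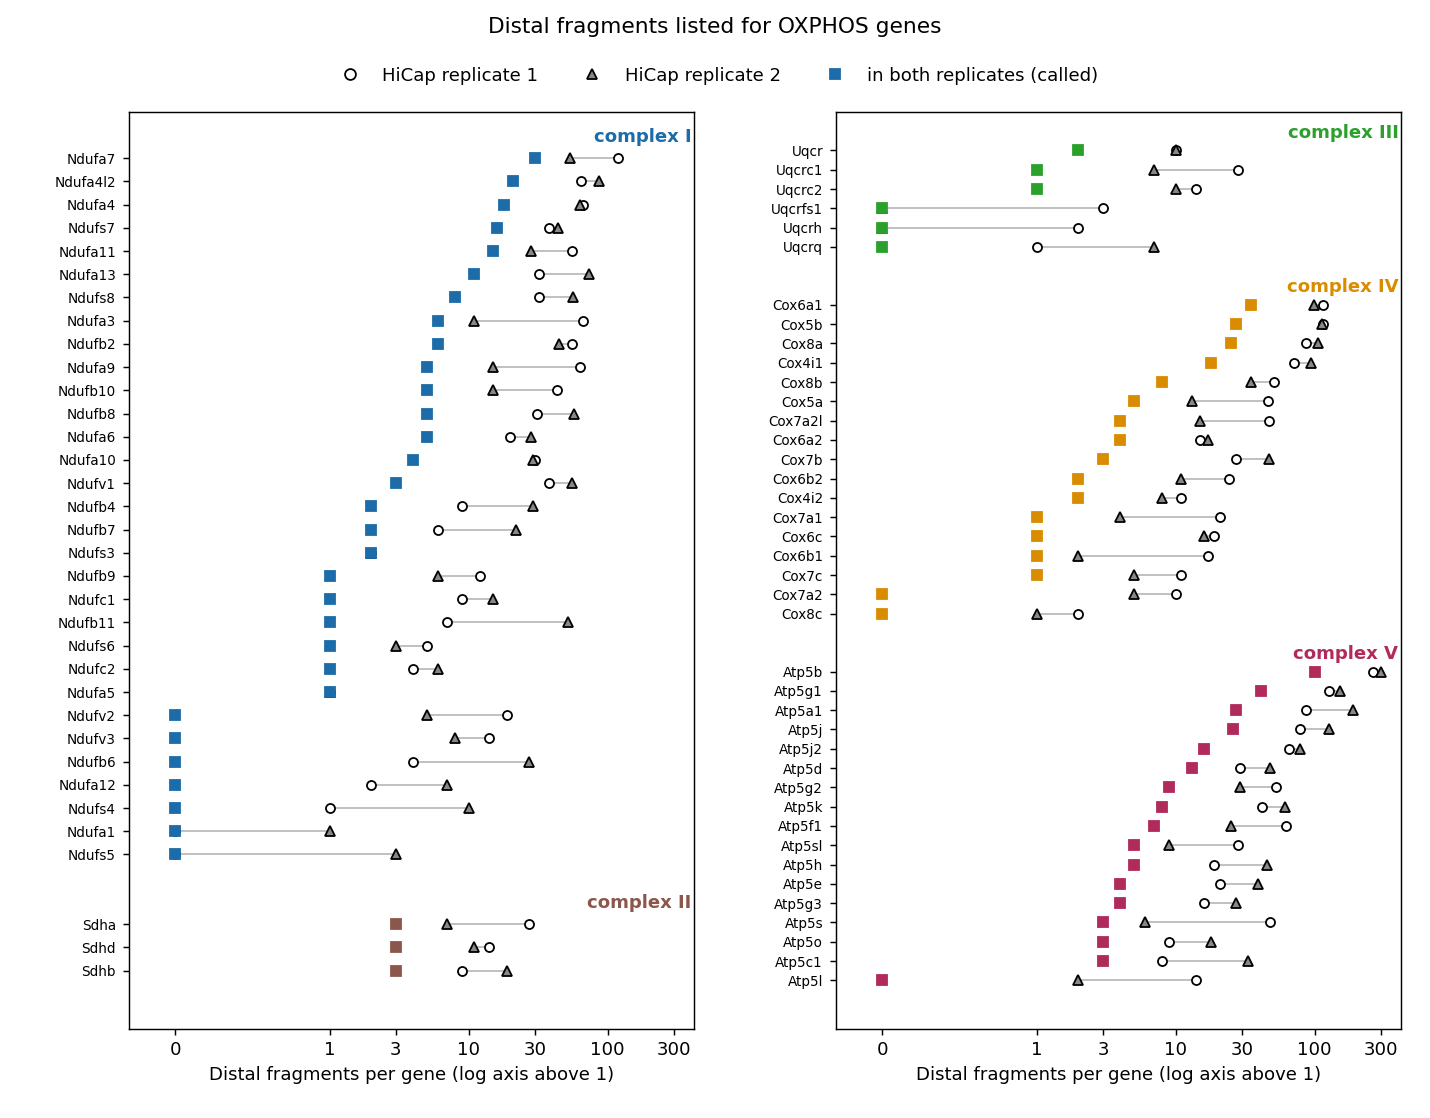
Distal fragments per gene for 74 genes (x axis, log scale above 1) in HiCap replicate 1 (open circles), replicate 2 (grey triangles) and in both at the same promoter (squares, coloured by complex), genes ordered by called fragments within each complex. Atp5b stands at the top with 100 called fragments, 13 of the genes drawn have a square at 0, and symbols overlie each other where the numbers are equal, as for Ndufa5 and Ndufs3.

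The complexes did not have the same share of called genes, but the sets are small and their intervals overlap. Complex V had 16 of 17 genes called (94.1%, interval 71.3 to 99.9) and complex IV 15 of 17 (88.2%, 63.6 to 98.5). Complex I had 24 of 32 (75.0%, 56.6 to 88.5), complex II had 3 of 3 (29.2 to 100%) and complex III 3 of 6 (50%, 11.8 to 88.2). An interval is no test against the 60.7% of all listed genes, since the genes of a complex are not replicates. Among genes with 1 promoter fragment, 17 of 22 were called in complex I, 2 of 2 in complex II and 2 of 5 in complex III. In complexes IV and V, 13 of 15 and 8 of 9 such genes were called, against 55.2% over all listed genes with 1 promoter fragment. Median numbers of called distal fragments were 7 for complex V, 3 for complexes II and IV, 2 for complex I and 0.5 for complex III. The 627 called pairs were divided into 305 of complex V, 171 of complex I, 138 of complex IV, 9 of complex II and 4 of complex III. They reached 591 distal fragments from 77 of the 104 promoter fragments. The 16 genes with 10 or more called fragments held 467 of the pairs (74.5%), so totals per complex follow a few genes. Without Atp5b, complex V had 190 pairs in place of 305.

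**Figure D2:**
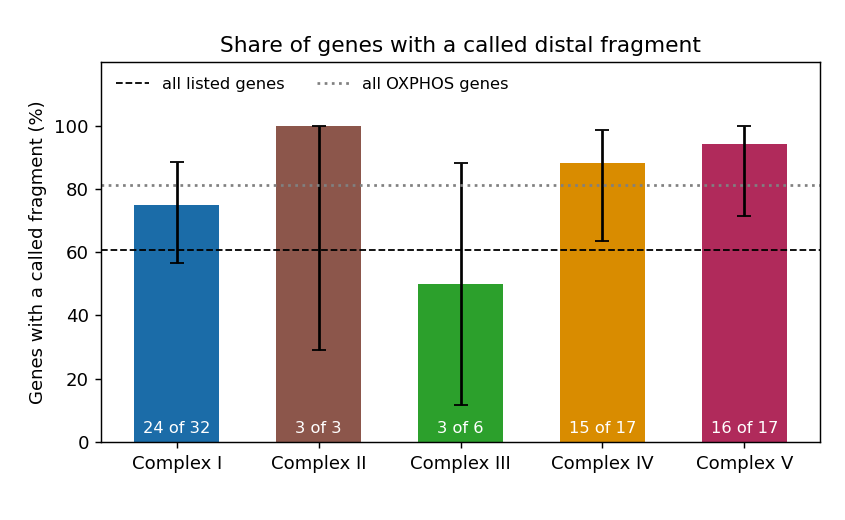
Share of genes with at least 1 called distal fragment (y axis, %) for complexes I to V, with exact 95% intervals over genes as error bars and the number of genes in each bar. The dashed line is the 60.7% of all listed genes and the dotted line the 81.3% of all 75 oxidative phosphorylation genes, and the shares run from 50% in complex III to 100% in complex II with its 3 genes.

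Complex I oxidises NADH and is the largest of the 5. Ndufa7, an accessory subunit, had the most contacts, with 118 distal fragments in replicate 1, 54 in replicate 2, 30 in both and 13 in Hi-C. Its captured fragment, chr17:33961427-33961641 of mm9, also holds the start of the ribosomal protein gene Rps28, so the contacts of the 2 genes cannot be told apart. Called fragments of Ndufa7 lay in its own gene (11), in Kank3 (9) and in Rps28 (5). Ndufa4l2, a paralogue of Ndufa4 known to be induced by low oxygen, had 64 and 87 distal fragments in replicates 1 and 2, with 21 in both and 3 in Hi-C. Ndufa4, which was named for complex I and later assigned to complex IV, had 67 and 63, of which 18 were in both and 4 in Hi-C. The 2 paralogues thus had similar numbers, and their surroundings differed: Ndufa4 had 1 other captured promoter within 50 kb and 14 of its called fragments lay in the neighbouring gene Phf14, whereas Ndufa4l2 had 8 and shared 19 of its 21 called fragments with promoters of other genes.

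Ndufs7, a core subunit that carries an iron-sulfur cluster, had 38 distal fragments in replicate 1, 44 in replicate 2, 16 in both and 17 in Hi-C. The replicates were close to each other for this gene. Among other core subunits, 8 distal fragments were called for Ndufs8, 3 for Ndufv1, 2 for Ndufs3 and none for Ndufv2. Ndufv2, another iron-sulfur subunit, had 19 distal fragments in replicate 1 and 5 in replicate 2. It had contacts in each replicate and none at the same fragment. Of the other genes without a call, Ndufb6 had 4 and 27, Ndufv3 14 and 8, and Ndufs4, an accessory subunit mutated in Leigh syndrome in humans, 1 and 10. For Ndufs3, by contrast, both replicates listed the same 2 distal fragments and no others, and for Ndufa5 the same 1. Such small numbers say little about agreement.

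Complex II, succinate dehydrogenase, also works in the citric acid cycle and has 4 subunits, 3 of which the lists name. Sdha, the flavoprotein that oxidises succinate, had 27 distal fragments in replicate 1, 7 in replicate 2, 3 in both and 3 in Hi-C. Sdhb, the iron-sulfur subunit, had 9, 19, 3 and 2, and Sdhd, a membrane anchor, had 14, 11, 3 and 2 in the same order. The captured fragment of Sdhd also holds the start of Timm8b, so contacts of Sdhd and Timm8b cannot be told apart. The equal numbers of called fragments came with different distances. Those of Sdhb lay 4.13, 4.97 and 16.8 kb away, all within its own gene, and those of Sdhd 1.97, 3.41 and 9.74 kb away. Those of Sdha lay 12.8, 76.6 and 194 kb upstream of the captured fragments, and none of them was in the Hi-C list. The nearest was still within the Sdha gene, so the captured fragment of that pair lies inside the gene. Distances of Sdha were therefore not all counted from the outermost start of the gene.

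Complex III had the fewest called pairs. Uqcr, its smallest subunit, had 10 distal fragments in each replicate, 2 in both and 11 in Hi-C. Uqcrc1, a core protein, had 28 and 7 with 1 in both and 7 in Hi-C, and Uqcrc2, the other core protein, had 14 and 10 with 1 in both and 4 in Hi-C. The single called fragment of Uqcrc1 lay 20.7 kb downstream in an intron of Col7a1, that of Uqcrc2 in its own gene. Uqcrfs1, the Rieske iron-sulfur protein, had 3 distal fragments in replicate 1 and none in replicate 2. Uqcrh had 2 and none, and Uqcrq had 1 and 7. Since 1 replicate listed none or 1 distal fragment for each of these genes, at most 1 could have been called for any of them. The complex also has members under other names, since the start of Uqcr10 lay in a fragment that the lists name for another transcript, RP23-280J3.4, with 65 pairs in replicate 1, 135 in replicate 2 and 27 in both. Cyc1, cytochrome c1 of the same complex, whose symbol falls outside the rule, had 71 and 81 distal fragments with 13 in both. The low counts of the named genes are therefore no description of the whole complex.

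Complex IV, cytochrome c oxidase, is known for subunits that exist as a widely expressed form and a form of muscle, lung or testis. Cox6a1, the widely expressed form of subunit 6a, had 114 distal fragments in replicate 1, 98 in replicate 2, 35 in both and 5 in Hi-C, while Cox6a2, its muscle form, had 15, 17, 4 and none. Cox4i1 had 71, 94, 18 and 4, and Cox4i2, the lung form, had 11, 8, 2 and 2. Cox8a had 87, 106, 25 and 9, Cox8b, a muscle form, had 51, 35, 8 and 4, and Cox8c, a testis form, had 2, 1, none and 1. In these families the widely expressed form had more distal fragments than each other form in both replicates.

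The order was not the same in all families. Cox7a1, the muscle form of subunit 7a, had 21 distal fragments in replicate 1, 4 in replicate 2, 1 in both and 7 in Hi-C, and Cox7a2, the widely expressed form, had 10, 5, none and 4. Cox6b1 had 17, 2, 1 and 2, and Cox6b2, the testis form, had 24, 11, 2 and 5. Cox7b, with 27, 47, 3 and none, was listed without its testis paralogue Cox7b2. Of the 7 listed tissue isoforms, Ndufa4l2 included, 6 had a call (85.7%), and of the 68 other genes 55 (80.9%), with medians of 2 and 3. Cox5b, which has no listed paralogue, had 115, 113, 27 and 4, and the replicates were nearly equal for it. The captured fragment of Cox4i1 also holds the start of Cox4nb, a gene of the endoplasmic reticulum that lies head to head with it.

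Complex V, the ATP synthase, had the genes with the most contacts. Atp5b, the catalytic beta subunit of the F1 head, had 264 distal fragments in replicate 1, 301 in replicate 2, 100 in both and 14 in Hi-C, and only 3 of the 21202 listed genes had more than 100. It had 5 captured promoter fragments within 8 kb, and the one at the start of the gene, shown above, held 88 of its 115 called pairs. Of its called fragments, 64 lay in Baz2a, whose annotation extends over Atp5b on both sides, and 24 of these 64 also in Ptges3. None lay in Atp5b itself, and 44 were called from promoters of other genes as well. No called distal fragment of the genes studied lay in a captured promoter fragment, which limits the part of Atp5b that could count. Atp5a1, the alpha subunit, had 86, 188, 27 and 9 from 2 promoter fragments. Atp5j, a stalk subunit, had 78, 126, 26 and 3, and no promoter of another gene was called at any of the 26. Of these, 13 lay in Jam2 and 9 in Gabpa, the gene of an ETS protein that regulates genes of this family and starts next to Atp5j. Gabpa under its own name had 1 distal fragment in replicate 1, 2 in replicate 2 and none in both.

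The 3 genes Atp5g1, Atp5g2 and Atp5g3 encode the same mature c subunit of the membrane ring. Atp5g1 had 126 distal fragments in replicate 1, 152 in replicate 2, 41 in both and 9 in Hi-C. Atp5g2 had 53, 29, 9 and 4, and Atp5g3 had 16, 27, 4 and 5. The order Atp5g1, Atp5g2, Atp5g3 held in both replicates. In replicate 2, however, Atp5g2 and Atp5g3 differed by only 2 fragments. Grouped by role after the values had been seen, all 5 genes of the F1 head were called, from 3 fragments for Atp5c1 to 100 for Atp5b with a median of 13, and 6 of the 7 genes of the stalks and membrane part other than the c subunit were called with a median of 7. Atp5l, a membrane subunit, was the exception with 14 and 2 distal fragments and none in both.

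**Figure D3:**
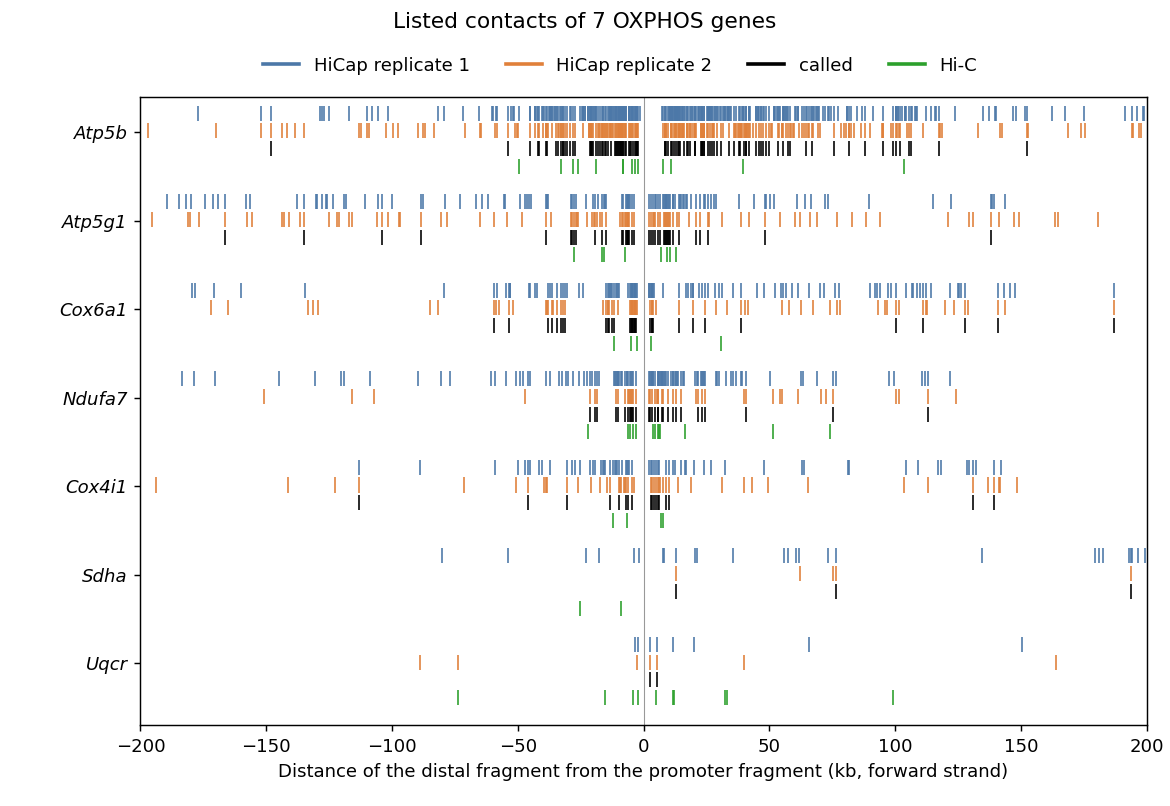
Listed contacts of 7 genes by distance of the distal fragment from the promoter fragment (x axis, kb along the forward strand, within 200 kb), with 1 tick per pair and a row each for HiCap replicate 1, replicate 2, called pairs and Hi-C. Called pairs of Atp5b (113 of 115 within 200 kb) fill both sides of the promoter, those of Cox6a1, Ndufa7 and Cox4i1 crowd near it, and Sdha and Uqcr have 3 and 2.

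The 14 genes without a call had few contacts in either replicate. Their median was 2.5 distal fragments in replicate 1 (0 to 21) and 5 in replicate 2 (0 to 27), compared with 29 (1 to 264) and 28 (1 to 301) for the 61 called genes. Of the 14, 9 had a contact in the Hi-C list. Median promoter fragment lengths were 776 bp without a call and 779 bp with one. The median number of other captured promoters within 50 kb was 2 for the genes without a call, 4 for called genes, 5 for genes with 10 or more called fragments and 2 for all listed genes. G+C content over 100 kb had a median of 43.9% without a call and 46.3% with one. The part of these features in the calls was not tested. Numbers differed between the replicates for single genes by up to 10-fold, with 41 of the genes that both list within 2-fold, and neither replicate was higher throughout, since 37 genes had more in replicate 1 and 35 in replicate 2. By complex, replicate 1 was higher for 13 of 17 genes of complex IV and replicate 2 for 12 of 17 of complex V.

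Naming of promoter fragments hid further subunits. Of 11 annotated genes that fit the symbols and were not named in a HiCap list, 9 start in a fragment listed under another gene. Ndufs1, the largest core subunit of complex I, starts in the fragment of Eef1b2, which had 120 pairs in replicate 1, 111 in replicate 2 and 29 in both. Ndufa2 starts in that of Ik, with 7 called pairs, and Ndufb3 in that of the transcript AC118698.2, with 4. Ndufa8 and Uqcrb had 1 each through Morn5 and Gm10767. Ndufb5, through Mrpl47, had none. With all of these except Cox4nb counted, 67 of 83 genes had a call, with 5 of 8 in complex III in place of 3 of 6. Conversely, 12 of the 75 genes were named for fragments that also hold the start of another protein-coding gene.

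The called pairs spanned a median of 11.3 kb, against 10.3 kb over all called pairs. Medians were 8.63 kb for complex I, 9.74 kb for complex II, 6.35 kb for complex III, 9.70 kb for complex IV and 13.6 kb for complex V. Without Atp5b, whose own median was 24.0 kb, the median of complex V was 9.92 kb and that of all genes together 9.46 kb, below the 10.3 kb of all called pairs. Pairs of 1 to 5 kb made up 23.3% of the called pairs, those of 5 to 10 kb 22.6%, those of 10 to 25 kb 24.9%, those of 25 to 100 kb 21.4% and longer ones 7.81%. In the single lists the median was 24.4 kb in replicate 1 and 96.1 kb in replicate 2. Replicate 2 held 474 pairs over 1 Mb (16.9%) and replicate 1 held 3 (0.107%), and the same gap was seen over all genes (19.4% and 0.371%).

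**Figure D4:**
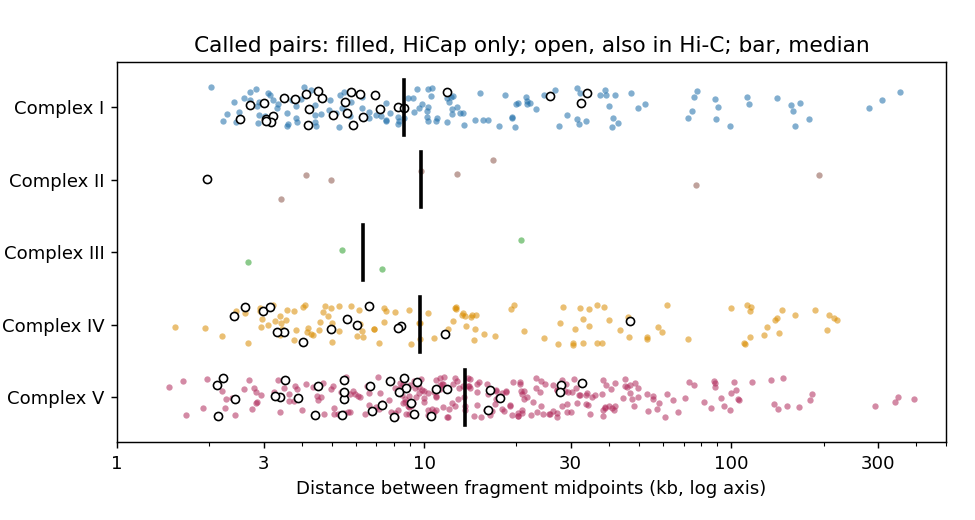
Distance between fragment midpoints of the called pairs (x axis, kb, log scale) by complex, 1 point per pair, spread vertically for legibility only. Filled points were called in HiCap only, open points are also in the Hi-C list and black bars are medians (8.63 kb for complex I and 13.6 kb for complex V), and open points become rare beyond 15 kb.

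The longest called pair joined Atp5b to an exon of Smarcc2, a chromatin remodelling gene, 393 kb away (chr10:127911536-127912932 of mm9, 1397 bp). Promoters of 19 genes were called at this fragment, and 31 captured promoters, those further along Atp5b included, lay between its ends. Ndufs7 reached an exon of Med16, a Mediator subunit, at 354 kb, Atp5b an intergenic fragment at 350 kb, Atp5a1 an intron of Slc14a2 at 341 kb and Ndufa11 an intergenic fragment at 309 kb. None of these 5 was in the Hi-C list.

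The distal fragments lay in exons for 33.3% of the called pairs, in introns for 37.6% and between genes for 29.0%, compared with 30.1, 35.0 and 34.9% over all genes. They lay within the gene of their own promoter in 18.2% of the pairs (29.4% over all) and had that promoter as the nearest captured one in 31.4% (48.0% over all). In 15.3% of the pairs, 5 or more captured promoters lay between the ends, other promoters of the same gene included, against 8.79% over all. Atp5b supplied 48 of these 96 pairs, and without it the share was 9.38%. Without Atp5b, 22.3% of the pairs lay within the own gene and 37.1% had the own promoter as the nearest. The median number of other captured promoters within 50 kb was 4 for these genes and 2 for all, and its part in these shares was not tested. A distal fragment that was also called from another gene was found in 39.9% of the pairs (33.5% over all). Within 10 kb these shares were 32.3% and 22.4%, and beyond 25 kb 52.5% and 54.8%.

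Distal fragments shared between 2 oxidative phosphorylation genes were rare. Atp5d, the delta subunit of the F1 head, and Ndufs7 lie 112 kb apart on chromosome 10 and had 3 called distal fragments in common. These were chr10:79620701-79621588 in Midn, chr10:79622486-79623227 and chr10:79623438-79624015, 16 to 20.8 kb from the promoters of Atp5d and 88.3 to 90.9 kb from Ndufs7. The promoter of Midn was also called at each of them, and the pair of Atp5d with the middle one was in the Hi-C list. Uqcr lies 155 kb from Ndufs7 on the same chromosome and shared none. Other fragments were hubs of unrelated genes. A 916-bp fragment 3.18 kb from Ndufa4l2 was called from 28 promoters of 21 genes, and a 786-bp fragment in an exon of Ube2z, 27.8 kb from Atp5g1, from 20 promoters of 15 genes. Next came 4 fragments with 19 promoters each, which were the Smarcc2 fragment called from Atp5b, a 1064-bp intergenic fragment 128 kb from Cox6a1, and fragments of 945 and 523 bp near Atp5h. By genes rather than promoters, a 725-bp fragment 147 kb from Cox8b was called from 17, among them several Ifitm genes.

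Hi-C without capture held 79 of the 627 called pairs (12.6%, interval 10.1 to 15.5), against 12.5% of all called pairs. Over 15 kb it held 10 of 254 (3.94%, 1.90 to 7.12) against 5.35%, and up to 15 kb 69 of 373 (18.5%, 14.7 to 22.8) against 16.8%. The shares of complexes I (17.0%, 11.7 to 23.4), IV (10.9%, 6.21 to 17.3) and V (11.1%, 7.84 to 15.2) had overlapping intervals. Complex II had 1 pair of 9, from the fragment that Sdhd shares with Timm8b, and complex III none of 4. The genes with the most such pairs were Atp5a1 and Atp5b with 7 each and Ndufa7 with 6, followed by Atp5h, Cox8a, Ndufa11 and Ndufa13 with 5 each. Some of these fragments also hold the start of another gene: Rps28 for Ndufa7, Vmac for Ndufa11 and Tssk6 for Ndufa13. The same holds for Kctd2 in 1 of the 2 fragments of Atp5h, and such pairs cannot be assigned to either gene. For Atp5h these were 5 of 7 called pairs and for Atp5b 7 of 115. Cox4i1 and Atp5g2, with 18 and 9 called pairs, had none in Hi-C.

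The sequences of 3 short distal fragments with a called pair that Hi-C also holds are given on the plus strand of mm9, to show the length at which contacts were placed, with GATC in capitals. The Atp5b fragment (chr10:127511284-127511565, 282 bp, 8.26 kb from the promoter) overlaps an annotated exon in the stretch that the genes Baz2a and Ptges3 share and was called from Ptges3 as well. The Cox5b fragment (chr1:36756525-36756786, 262 bp, 8.39 kb away) overlaps an exon of Actr1b and was called from Cox5b alone. The Ndufs7 fragment (chr10:79718295-79718465, 171 bp, 6.33 kb away) is in an intron of Ndufs7 and was called from Cirbp, Dazap1, Mum1 and Ndufs7.
Atp5b distal: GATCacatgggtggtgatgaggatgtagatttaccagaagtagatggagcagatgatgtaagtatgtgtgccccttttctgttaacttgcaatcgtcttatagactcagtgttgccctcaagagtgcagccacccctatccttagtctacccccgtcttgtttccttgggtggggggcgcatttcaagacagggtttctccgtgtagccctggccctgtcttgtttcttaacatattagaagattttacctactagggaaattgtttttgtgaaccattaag
Cox5b distal: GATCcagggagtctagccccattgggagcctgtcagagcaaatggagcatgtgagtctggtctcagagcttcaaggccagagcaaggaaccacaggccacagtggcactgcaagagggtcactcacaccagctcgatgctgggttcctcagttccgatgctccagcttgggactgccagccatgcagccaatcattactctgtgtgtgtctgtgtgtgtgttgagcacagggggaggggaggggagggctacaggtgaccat
Ndufs7 distal: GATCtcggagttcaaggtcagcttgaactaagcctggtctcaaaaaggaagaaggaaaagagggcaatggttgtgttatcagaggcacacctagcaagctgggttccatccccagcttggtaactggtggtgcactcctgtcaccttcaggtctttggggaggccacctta
Listed positions had been set to MboI sites, and all 591 called distal fragments then began and ended at GATC in the genome. Of these, 556 (94.1%) held no further site, so each of the 556 is 1 MboI fragment.

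Of the 2800 pairs that replicate 1 listed for these genes, replicate 2 listed 22.4% (20.9 to 24.0), and of the 2809 of replicate 2, replicate 1 listed 22.3% (20.8 to 23.9). Over all genes these shares were 19.0 and 17.1%. Atp5b supplied 115 of the 627 shared pairs, and the shares given here were not computed without it. Agreement fell with distance. Within 5 kb, 41.1% of the replicate 1 pairs (36.0 to 46.4) and 71.9% of the replicate 2 pairs (65.2 to 78) were shared, against 31.6 and 58.0% over all genes. From 25 to 100 kb, the shares were 16.2 and 21.3%, against 13.1 and 15.5%. From 100 to 500 kb they were 9.25 and 6.60%, against 7.68 and 4.24%. Beyond 500 kb none of the 28 replicate 1 pairs and none of the 645 replicate 2 pairs was shared, which allows shares of up to 12.3 and 0.570%, and the shares over all genes, 3.13 and 0.128%, lie within these limits. By complex, the share of replicate 1 pairs was 27.3% for complex V, 20% for IV, 19.4% for I, 17.0% for II and 6.90% for III. For replicate 2 pairs it was 24.32% for complex II, 23.85% for V, 23.35% for IV, 19.7% for I and 11.76% for III. The order of the complexes thus differed between the replicates, and complex V led only among replicate 1 pairs.

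**Figure D5:**
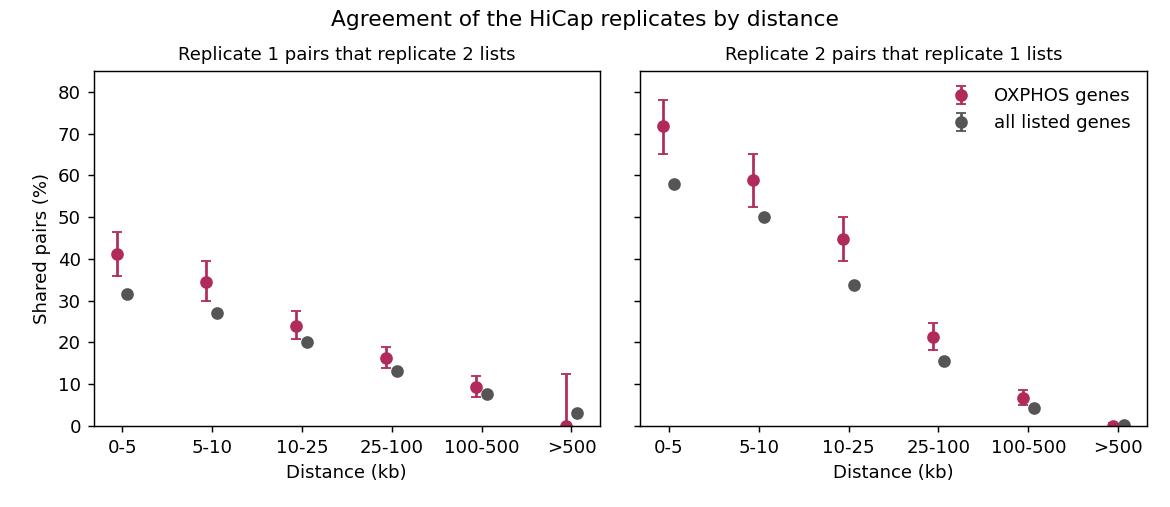
Share of listed pairs that the other HiCap replicate also lists (y axis, %) by distance (x axis, kb, from the 1 kb minimum), for pairs of replicate 1 (left) and replicate 2 (right), with exact 95% intervals over pairs. The oxidative phosphorylation genes (red) lie above all listed genes (grey) up to 500 kb, at 71.9 and 58.0% for replicate 2 pairs within 5 kb, and beyond 500 kb no pair of the oxidative phosphorylation genes was shared.

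Genes that build or regulate the complexes were described with the same measure. Of 26 listed assembly factors, 18 had a called distal fragment (69.2%, 48.2 to 85.7) with a median of 2. The highest were Bcs1l, which inserts the Rieske protein into complex III, with 190 distal fragments in replicate 1, 228 in replicate 2 and 56 in both, Lyrm7, which binds that protein beforehand, with 99, 194 and 34, Sdhaf1 of complex II with 134, 48 and 27, and Surf1 of complex IV with 38, 98 and 25. Other assembly factors of complex III had few, with 1 called fragment each for Ttc19 and Uqcc. Of 11 listed regulators of mitochondrial biogenesis, 8 had a call (72.7%, 39.0 to 94.0) with a median of 3, led by Nrf1 with 115, 62 and 14 and Pprc1 with 36, 99 and 11. Tfam, the packaging factor of mitochondrial DNA, had 13 and 8 with none in both. The share over all listed genes was 60.7%, and the intervals cover counting error only and are no test against it.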

How the data were processed

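The authors aligned both read ends separately to mm9, assigned them to MboI fragments, removed duplicates and kept pairs over 1 kb apart with at least 3 read pairs per HiCap replicate. The deposited files list genomic positions with gene names and no other values. Depth is unknown from these lists, and the Capture-C samples were not analysed here. For Hi-C, whose replicates the authors pooled, the minimum is not given in the sources used here. Listed positions were set to MboI sites of mm9, and start sites and exons came from GENCODE vM1. Distance was taken between fragment midpoints. Called pairs of each gene were counted with pandas 2.3.3 and intervals with scipy 1.17.1; the overlap step was tested on simulated data. No test was made, since 2 replicate lists of calls allow none, and all shares are descriptions. The members, gene lists and rule for named genes were chosen with earlier results of these data known. Named genes are the 4 of each complex with the most called fragments, members without a call (at most 5 per complex), complex II, isoform families, the 5 longest pairs, members that share fragments, and the leading Hi-C genes and shared fragments. Alternatives were each replicate alone, the authors' combined list, distance minimums, looser matching, merged fragments and other member sets. Results for some single genes are not reported here; counts over all members include them.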

Additional observations from a re-analysis of the deposited data

How the results depend on the processing

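Only pairs in both replicates were counted above, and that choice sets most numbers. In either replicate alone, 73 of the 75 genes had a listed distal fragment, with 30 to 32 in complex I, 3 in complex II, 4 to 6 in complex III and 17 in each of complexes IV and V. Genes were chosen by being named in either list, so this number is in part set by the choice. Over all 21202 genes, 20036 were named in replicate 1 and 18550 in replicate 2. For the 75 genes, the lists of 1 replicate held 2800 to 2809 pairs, with 868 to 881 in complex I, 37 to 53 in complex II, 34 to 58 in complex III, 591 to 690 in complex IV and 1118 to 1279 in complex V. The median number of distal fragments was 17 to 21, the median distance 24.4 to 96.1 kb and the share in Hi-C 3.60 to 5.18%.

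With pairs over 15 kb only, 254 pairs were left (57, 3, 1, 51 and 142 for complexes I to V), 1 gene of complex III had a call, the median number was 1, and the replicates shared 14.5 and 11.6% of the pairs of replicates 1 and 2. Hi-C then held 3.94%. Over 5 kb, complex II had 5 pairs, the replicates shared 19.7 and 18.5% and Hi-C held 9.56%. Counting distal fragments within 1 kb as the same gave 1573 pairs (449, 22, 13, 387 and 702 by complex), a median of 10 per gene, shares of 56.2 and 41.3% and 7.57% in Hi-C. Matching by gene and distal fragment, whichever promoter, gave a replicate 1 share of 24.4%. With subunits listed under other genes, chosen after the data were seen, complex III had 5 called genes and 32 pairs.

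The authors' combined list gave the same number of called fragments for all 75 genes, although 67 of its 627 pairs carry another promoter position. Of the 160 alternative values, 113 stayed within 1.5 times the reported count or median or within the interval of the reported share. Part of these were fixed in advance. The alternative with a single entry per promoter fragment repeated the main counting, since no members share such a fragment. Member sets that leave a complex unchanged return its main values, and the combined list rests on the same rule for both replicates. The 113 are therefore no measure of stability. No paired analysis was possible because no result comes from a test between groups. The lists give no read numbers, so weak and strong contacts could not be told apart, and a missing call is a contact that was not detectable in both libraries.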
